A study of Homo sapiens with 24 samples.

Results

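The vacuolar ATPase (V-ATPase) genes described here are TCIRG1, ATP6V0A1, ATP6V0A2, ATP6V0D1, ATP6V1A, ATP6V1B2, ATP6V1C1, ATP6V1H, ATP6AP1 and ATP6AP2. They were chosen by name, as the rows of the deposited count table that carry these symbols, and make up 10 of its 48162 genes. RNA-seq was made of PPC1, a human prostate cancer cell line, in 4 conditions with 6 libraries each. Parental cells (UT) came from plates that were not irradiated, and the methods describe filtration for the irradiated plates alone. Parental cells with LCL521 (UT_LCL) received 5 uM LCL521, a pro-drug that inhibits the lysosomal enzyme acid ceramidase (ASAH1), for 5 h before harvest. Polyploid giant cancer cells (PGCC) came from cultures that received 8 Gy of radiation on day 2 and were harvested on day 5 as the cells held back by a 20 micron filter. PGCC with LCL521 (PGCC_LCL) received both the radiation and the inhibitor. The labels place the LCL521 treatment on day 5 and the methods of the study on day 3. The paper also states that PGCC were collected 3 days after irradiation. Labels and methods therefore agree if the methods count from irradiation. The experiment was done 6 times with the 4 conditions harvested in parallel. Radiation and size selection differ together between PGCC and parental cells and cannot be told apart.

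The V-ATPase is a rotary proton pump that acidifies lysosomes, endosomes, the Golgi and secretory vesicles. Its cytosolic V1 sector hydrolyses ATP and turns a central rotor, and its membrane-embedded V0 sector passes protons through the interface between the a subunit and a ring of proteolipids. The a subunit exists in several isoforms that differ in where they place the pump in the cell. Acid hydrolases of the lysosome, among them acid ceramidase, depend on the low pH that the pump maintains. Genes of the pump and of the lysosome are shared targets of the MiT/TFE transcription factors, which bind promoters at sites built around the letters CACGTG.

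RefSeq promoter windows of assembly GRCh38.p14, which run from 250 bases before to 50 bases after a start site, were at hand for 6 of the 10 genes, in 7 windows. Windows for ATP6V1A, ATP6V1B2, ATP6V1C1 and ATP6V1H were not analysed here. The windows below belong to the 2 genes that rose in PGCC (TCIRG1 and ATP6AP2), to the a2 isoform that is set against TCIRG1 in the results, and to ATP6V0D1, the 1 gene of these 6 whose window held CACGTG. They lie at chr11:68038775-68039074 and chr11:68042730-68043029 (TCIRG1, plus strand), chr12:123712103-123712402 (ATP6V0A2, plus strand), chr16:67481108-67481407 (ATP6V0D1, minus strand) and chrX:40580720-40581019 (ATP6AP2, plus strand). Capitals mark CACGTG on either strand. They also mark the GC box, spelled GGGCGG, on either strand. The third motif in capitals is CCAAT, again on either strand.
TCIRG1, first start site: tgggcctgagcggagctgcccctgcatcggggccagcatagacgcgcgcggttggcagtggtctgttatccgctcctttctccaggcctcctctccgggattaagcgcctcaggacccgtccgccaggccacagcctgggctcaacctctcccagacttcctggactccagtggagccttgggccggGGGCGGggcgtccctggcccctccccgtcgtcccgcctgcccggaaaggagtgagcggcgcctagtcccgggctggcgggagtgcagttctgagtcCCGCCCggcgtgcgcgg
TCIRG1, downstream start site: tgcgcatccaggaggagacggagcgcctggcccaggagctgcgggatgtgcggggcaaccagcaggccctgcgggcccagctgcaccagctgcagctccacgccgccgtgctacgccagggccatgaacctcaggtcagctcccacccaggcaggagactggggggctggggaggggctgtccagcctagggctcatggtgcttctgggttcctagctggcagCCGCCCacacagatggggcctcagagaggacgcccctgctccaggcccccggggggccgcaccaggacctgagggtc
ATP6V0A2: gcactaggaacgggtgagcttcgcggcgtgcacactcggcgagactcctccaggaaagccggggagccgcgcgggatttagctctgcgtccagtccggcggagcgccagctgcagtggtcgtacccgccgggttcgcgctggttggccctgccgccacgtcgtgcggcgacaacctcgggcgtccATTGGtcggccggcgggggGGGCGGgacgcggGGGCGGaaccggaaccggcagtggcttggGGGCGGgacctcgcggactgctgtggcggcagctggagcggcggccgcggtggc
ATP6V0D1: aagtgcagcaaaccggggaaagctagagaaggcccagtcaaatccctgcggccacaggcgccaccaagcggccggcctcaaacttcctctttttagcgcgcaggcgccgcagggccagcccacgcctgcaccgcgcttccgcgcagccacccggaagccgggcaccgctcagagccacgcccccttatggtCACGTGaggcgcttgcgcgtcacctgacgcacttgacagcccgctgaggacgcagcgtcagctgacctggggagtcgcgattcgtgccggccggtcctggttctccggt
ATP6AP2: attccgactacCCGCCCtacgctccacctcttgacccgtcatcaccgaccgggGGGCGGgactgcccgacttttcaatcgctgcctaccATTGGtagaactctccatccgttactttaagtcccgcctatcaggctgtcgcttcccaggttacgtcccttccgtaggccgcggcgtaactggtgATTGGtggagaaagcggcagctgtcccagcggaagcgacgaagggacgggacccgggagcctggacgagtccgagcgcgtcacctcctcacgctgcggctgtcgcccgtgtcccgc

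CACGTG stood in 1 of the 7 windows, in ATP6V0D1, where it began at position -59 from the start site, with the letters TCACGTG on both strands. Of all 35116 promoter windows of the same length, 7.26% held CACGTG and 3.71% held TCACGTG, searched on both strands. Neither TCIRG1 window held CACGTG. The letters GGGCGG stood in 6 of the 7 windows against 45% of all windows, CCAAT in 4 of 7 against 34.6%, and TGANTCA, the letters bound by AP-1, in 0 of 7 against 7.71%. Of 19 windows of other subunit genes, 4 held CACGTG, and they belonged to ATP6V0B, ATP6V1G1 and ATP6V0E2, the last with a pair of overlapping windows. A match is a description of the letters and not of binding.

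In the hg19 coordinates of the table, the membrane sector was represented by TCIRG1 (the a3 isoform, chr11:67806483-67818362, plus strand), ATP6V0A1 (a1, chr17:40610862-40674629, plus strand), ATP6V0A2 (a2, chr12:124196865-124245549, plus strand) and ATP6V0D1 (the d1 subunit that joins V0 to the rotor, chr16:67471917-67515140, minus strand). The cytosolic sector was represented by ATP6V1A (the catalytic A subunit, chr3:113465866-113530903), ATP6V1B2 (the B2 subunit, chr8:20054878-20084330), ATP6V1C1 (C1, chr8:104033291-104085279) and ATP6V1H (H, chr8:54628117-54756118). C and H take part in the regulated contact of V1 with V0. The accessory proteins were ATP6AP1 (chrX:153656978-153664862) and ATP6AP2, also named the prorenin receptor (chrX:40440146-40465889), both of which sit in the assembled V0 sector. Counts refer to whole genes, over the exons of the annotation used by the authors.

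Library totals lay between 14835246 and 19906601 counts, so that 3 counts corresponded to between 0.15 and 0.208 CPM, the counts scaled to a fixed library total. Levels are given as CPM after scaling by the trimmed mean of M-values (TMM) over all 24 libraries. Levels of different genes are compared as RPKM, a level per length that divides CPM by the gene length in kilobases listed in the table. Of the 4 epithelial markers (KRT8, KRT18, EPCAM and CDH1), 3 had more than 3 counts in every library. The prostate luminal markers KLK3 and TMPRSS2 had at most 3 counts in every library, so the prostate identity in the labels could not be seen from this pair. CDKN1A, a target of p53 after radiation, had a level of 5.11 to 14.4 CPM in parental cells and 52.4 to 187 CPM in PGCC, without overlap. Replicates 4 and 5 were the lowest in both, at 5.11 and 6.00 CPM in parental cells and 68.7 and 52.4 CPM in PGCC. The other replicates were at 11.1 to 14.4 CPM and 163 to 187 CPM.

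Replicates 4 and 5 stood apart in all 4 conditions for several of these genes. As deviations from the mean log2 CPM of the own condition, ATP6V0D1 lay between -0.24 and -0.08 in the 8 libraries of replicates 4 and 5 and between 0.0072 and 0.16 in the 16 others, and ATP6V0A2 between -0.42 and -0.11 against between -0.04 and 0.40. Both genes were thus lower in replicates 4 and 5 without overlap. The mean difference was -0.20 for ATP6V0D1, -0.42 for ATP6V0A2 and -0.25 for ATP6V1A, beside a median size of 0.23 over all genes. For TCIRG1 it was 0.0062, a mean over shifts of opposite sign. Replicates 4 and 5 of TCIRG1 lay below the condition mean in parental cells and above it in PGCC, with and without LCL521. Their deviations ran from -0.31 to 0.37.

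**Figure D1:**
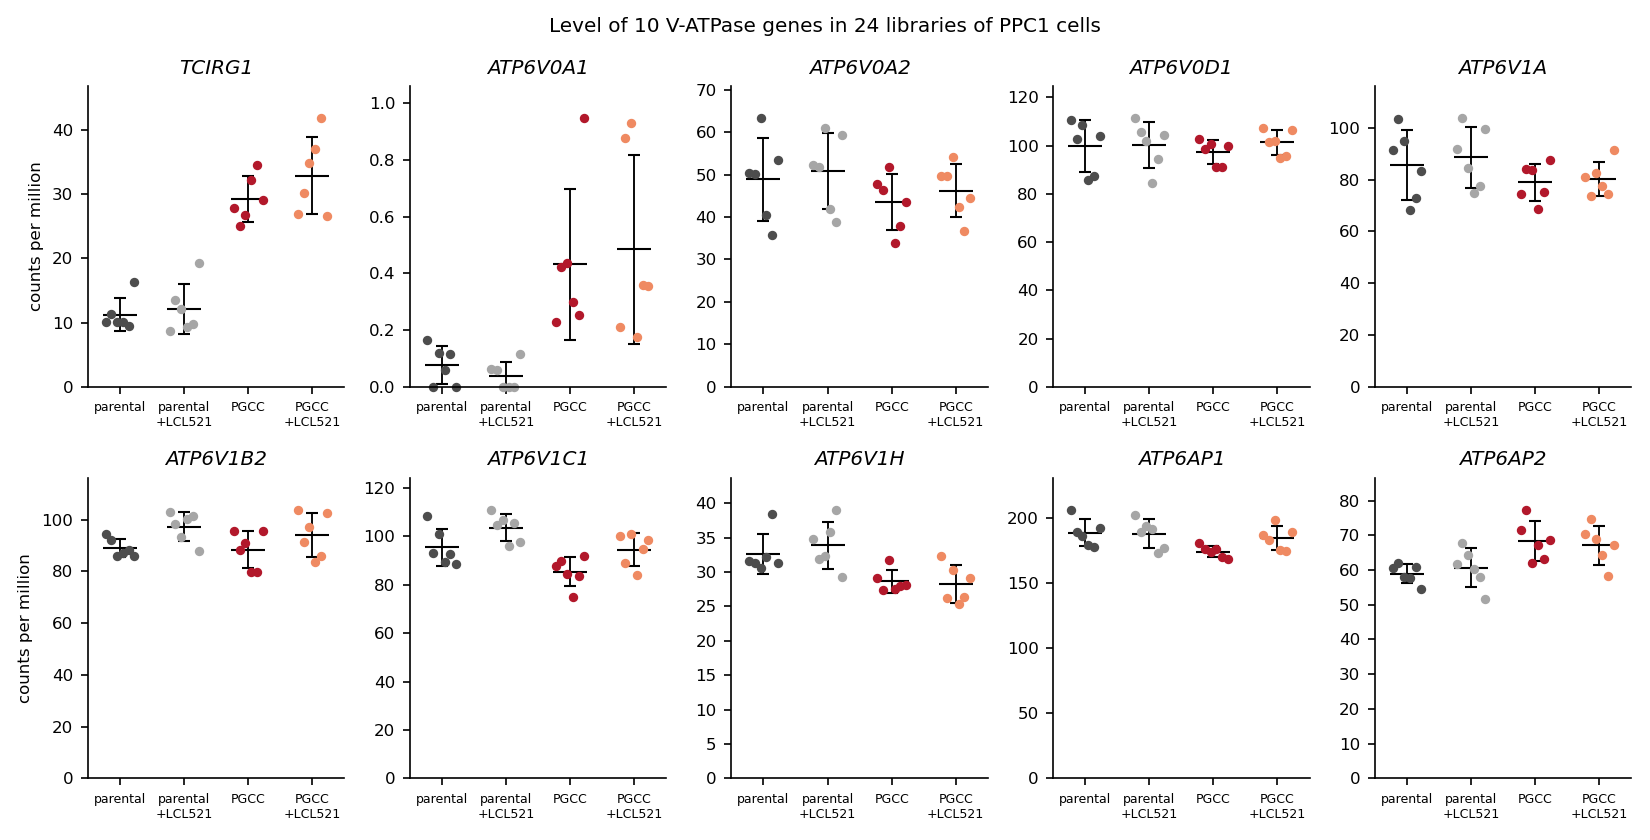
Level of each of the 10 V-ATPase genes in CPM (vertical axes from 0, a scale of its own per gene) in the 6 libraries of each condition, with points in the order of the replicate numbers, and mean and SD as bar and whiskers. The PGCC libraries of TCIRG1 (25.0 to 34.5 CPM) lie above all parental libraries (9.44 to 16.3 CPM), while PGCC and parental cells overlap for the other 8 genes that passed the filter on low counts.

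Per unit of gene length, the accessory gene ATP6AP1 had the highest level of the 10 genes in every condition, with 41.8 ± 2.29 RPKM (SD, n = 6) in parental cells and 38.6 ± 0.992 RPKM in PGCC. ATP6V0D1 and ATP6AP2 followed in parental cells at 29.4 ± 3.15 and 28.2 ± 1.31 RPKM, and their ranges overlapped. Then came the V1 genes ATP6V1A (18.7 ± 2.95 RPKM), ATP6V1C1 (17.0 ± 1.38), ATP6V1H (13.8 ± 1.23) and ATP6V1B2 (12.9 ± 0.525), each of which overlapped with its neighbour in this order. The a isoforms stood at the end, with ATP6V0A2 at 8.44 ± 1.68 RPKM, TCIRG1 at 4.19 ± 0.956 RPKM and ATP6V0A1 at 0.0164 ± 0.0146 RPKM, with no overlap between neighbours.

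In PGCC the order changed at 3 places. ATP6AP2 (32.6 ± 2.72 RPKM) came before ATP6V0D1 (28.7 ± 1.48 RPKM), ATP6V1B2 (12.8 ± 1.04 RPKM) before ATP6V1H (12.1 ± 0.703 RPKM), both with overlapping ranges, and TCIRG1 (10.9 ± 1.32 RPKM) before ATP6V0A2 (7.52 ± 1.14 RPKM) with no overlap. The summed RPKM of the 4 V1 genes divided by that of the 4 V0 genes was 1.49 ± 0.154 in UT and 1.56 ± 0.174 in UT_LCL, against 1.21 ± 0.0489 in PGCC and 1.19 ± 0.0864 in PGCC_LCL (SD, n = 6 each). This ratio is given as a description of these genes alone, and TCIRG1 is 1 of the V0 genes in it. It leaves out the other subunit genes, such as ATP6V1G1 (128 RPKM in UT and 133 in PGCC) and ATP6V0B (57.3 and 63.9 RPKM). It therefore does not give the balance of the whole V1 and V0 sectors.

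The first comparison asked which pump genes differ between PGCC and parental cells. TCIRG1 was higher in PGCC by 2.62-fold and ATP6AP2 by 1.17-fold, and the other 7 genes tested did not pass the threshold. Fold changes, standard errors (SE) and p-values adjusted over all genes by Benjamini-Hochberg come from the quasi-likelihood test of edgeR on the counts, at a threshold of 0.05. Of the 10 genes, 9 passed the filter on low counts and were tested, and 2 of 9 were called, both higher. Of all 13812 genes tested, 47.4% were called, 23.1% higher and 24.3% lower. The median log2 fold change of the 9 genes was -0.11, beside -0.03 over all genes. The libraries are of bulk RNA, so a change in the share of cells that express a gene and a change in its RNA per cell cannot be told apart.

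TCIRG1 encodes the a3 isoform, best known as the a subunit of the osteoclast pump and of lysosomes. Its level was lowest at 9.44 CPM, at a median of 10.1 and highest at 16.3 CPM in parental cells. In PGCC it was lowest at 25.0, at a median of 28.5 and highest at 34.5 CPM. The groups did not overlap, and PGCC was higher than parental cells in 6 of 6 replicates. The log2 fold change was 1.39 with an SE of 0.14 (edgeR, adjusted p = 2.96e-06), a 2.62-fold difference with a 95% confidence interval of 2.13 to 3.23. The exact permutation test of the 924 divisions of the libraries, taken as unpaired, gave a two-sided p of 0.0022, the smallest it can give. The exact test over the 64 sign changes of the 6 paired differences gave 0.031, also its smallest. The difference in mean log2 CPM was 1.21 over replicates 1, 2, 3 and 6 and 1.76 over replicates 4 and 5, and leaving out the latter gave a log2 fold change of 1.21 (edgeR, adjusted p = 2.1e-05).

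Because TCIRG1 is known from osteoclasts and leukocytes, 6 of their markers (PTPRC, CD3E, CD68, LYZ, ACP5 and CTSK) were looked at beside it. Their summed level was 1.57 to 4.66 CPM in UT and 1.24 to 4.94 CPM in UT_LCL, against 6.01 to 7.51 CPM in PGCC and 5.87 to 7.62 CPM in PGCC_LCL. In every library 2 of the 6 markers had more than 3 counts. PTPRC had 6 to 47 counts in parental cells and 42 to 70 in PGCC, and CTSK had 17 to 35 against 37 to 86. The T cell marker CD3E and the macrophage marker CD68 had 0 counts in every library of 3 conditions and at most 1 and 2 counts in PGCC with LCL521. LYZ had 0 counts in parental cells and 3 to 5 in PGCC. ACP5 had more than 3 counts in at least 1 library of each condition, but not in all libraries of parental cells or of PGCC. All libraries came from cultures of the PPC1 line, and whether any leukocytes or osteoclasts added to the TCIRG1 level was not tested. The 4 stromal markers summed to 49.8 to 133 CPM in parental cells and 79.2 to 206 CPM in PGCC. Most of this was COL1A2, and DCN had at most 3 counts in both.

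ATP6V0A2 encodes the a2 isoform of the Golgi and early endosomes. It ranged from 35.8 to 63.3 CPM in parental cells, with a median of 50.2, and from 33.9 to 51.8 CPM in PGCC, with a median of 44.9. The groups overlapped widely, and the log2 fold change was -0.16 with an SE of 0.14 (edgeR, adjusted p = 0.38). Its 95% confidence interval ran from -0.46 to 0.14.

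Among the a isoforms, the share of TCIRG1 in their summed RPKM was 33.2% ± 4.96 in parental cells (lowest 25.5%, median 33.9%, highest 39.7%) and 58.4% ± 6.19 in PGCC (lowest 52.2%, median 56.7%, highest 66.4%). With LCL521 it was 33.5% ± 5.09 in parental cells and 59.4% ± 6.44 in PGCC (SD, n = 6 each). ATP6V0A2 held nearly all of the rest, with 66.6% ± 4.87 in parental cells and 40.3% ± 6.17 in PGCC. ATP6V0A1 and ATP6V0A4, the a4 isoform of the kidney, each held less than 1.4% in any library. The sum includes ATP6V0A1 at its listed counts, which stand in a run of near-empty rows described with that gene, so the shares hold only for the counts as deposited. They are a description with no test.

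**Figure D2:**
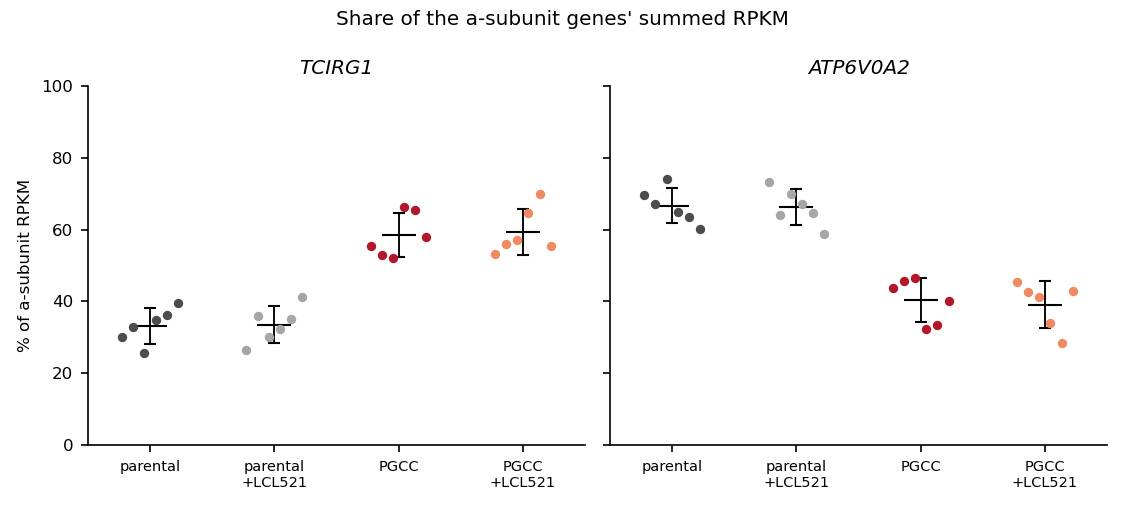
Share of TCIRG1 and of ATP6V0A2 in the summed RPKM of the 4 a-subunit genes (vertical axis, %), per library in the order of the replicate numbers, with mean and SD. The TCIRG1 share is between 25.5% and 39.7% in parental cells and between 52.2% and 66.4% in PGCC.

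ATP6AP2 was the other gene that rose. Its level was lowest at 54.5 CPM, at a median of 59.3 and highest at 62.0156 CPM in parental cells. In PGCC it was lowest at 62.0003, at a median of 67.9 and highest at 77.4 CPM. The ranges touched by 1 library of each group, and PGCC was higher in 6 of 6 replicates. The log2 fold change was 0.22 with an SE of 0.07 (edgeR, adjusted p = 0.025). This call was lost in 4 of the 6 fits that left out 1 replicate, with adjusted p of 0.0754 without replicate 1, 0.0674 without replicate 2, 0.0503 without replicate 4 and 0.0800 without replicate 6 (edgeR). Without the filter on low counts, adjusted p was 0.14.

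ATP6AP1, the other accessory gene, was at 188 CPM at the median of the parental cells (178 to 207 CPM) and at 175 CPM at that of PGCC (169 to 181 CPM). PGCC was lower in 6 of 6 replicates, but the log2 fold change of -0.11 with an SE of 0.06 did not pass the threshold (edgeR, adjusted p = 0.15). The exact permutation test of this gene alone, with libraries taken as unpaired, gave a two-sided p of 0.0065. The exact test over the 64 sign changes of the 6 paired differences gave 0.031, the smallest it can give. Neither is adjusted for the number of genes.

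The V0 subunit ATP6V0D1 was at a median of 103 CPM in parental cells (85.6 to 111 CPM) and 99.2 CPM in PGCC (91.0 to 103 CPM). Its log2 fold change was -0.03 with an SE of 0.08 (edgeR, adjusted p = 0.80). The 95% confidence interval ran from -0.20 to 0.14.

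None of the 4 V1 genes was called. ATP6V1A was at a median of 87.3 CPM in parental cells and 79.4 CPM in PGCC, ATP6V1B2 at 87.8 and 89.5 CPM, ATP6V1C1 at 92.8 and 86.0 CPM and ATP6V1H at 31.5 and 28.0 CPM, all with overlapping ranges. The log2 fold changes were -0.11 with an SE of 0.11 for ATP6V1A (edgeR, adjusted p = 0.43), -0.0036 with an SE of 0.07 for ATP6V1B2 (0.97), -0.15 with an SE of 0.08 for ATP6V1C1 (0.12) and -0.18 with an SE of 0.09 for ATP6V1H (0.10). ATP6V1C1 and ATP6V1H were lower in PGCC in 5 of 6 replicates. The lower bounds of their 95% confidence intervals were -0.32 and -0.36. With the replicate number as a block and a correction for gene length, ATP6V1C1 was called (log2 fold change -0.17, edgeR, adjusted p = 0.043). With the replicate number as a block, 56.2% of all genes were called, and of the 9 pump genes TCIRG1 and ATP6AP2.

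**Figure D3:**
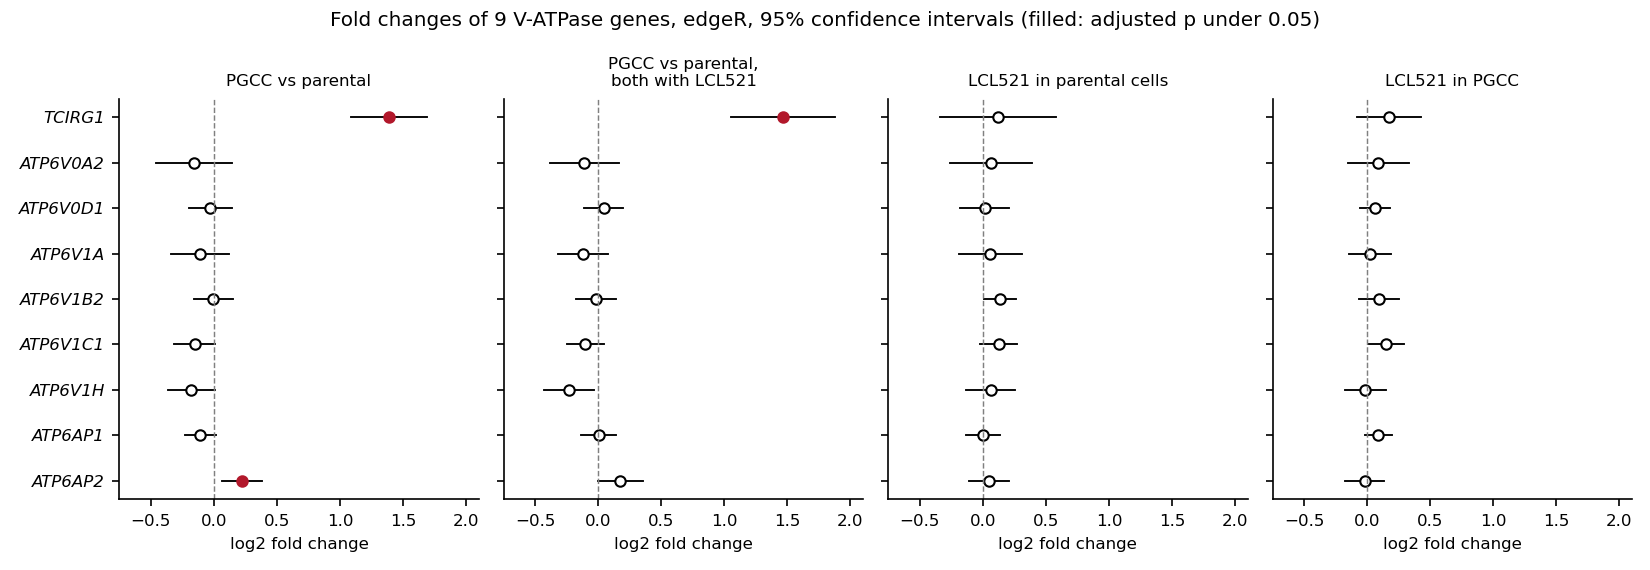
Log2 fold changes (horizontal axes) of the 9 tested V-ATPase genes in 4 comparisons, with 95% confidence intervals as lines and genes past the adjusted p threshold of 0.05 as filled points. TCIRG1 stands at 1.39 and 1.46 in the comparisons of PGCC with parental cells, and all other points lie between -0.23 and 0.22.

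ATP6V0A1, the a1 isoform that is abundant in neurons and present in most cell types, failed the filter on low counts. It had 109 counts over all 24 libraries. It had 0 to 3 counts a library in UT (8 in all) and 0 to 2 in UT_LCL (4 in all), against 4 to 17 in PGCC (46 in all) and 3 to 17 in PGCC_LCL (51 in all). PGCC and parental libraries did not overlap. In a fit without the filter, in which 25.8% of 29759 genes were called, it was higher in PGCC (edgeR, adjusted p = 0.0062). In the comparison under LCL521, in which such a fit called 27.1% of all genes, it was higher as well (edgeR, adjusted p = 0.00067). No fold change is given for counts this low.

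The low counts of ATP6V0A1 stood at the end of a run. On chromosome 17, the 14 adjacent protein-coding rows from ZNF385C to ATP6V0A1 (hg19, 40177594 to 40674629), which include KAT2A, RAB5C (with a pair of rows), STAT5B, STAT5A and STAT3, each had a median of at most 3 counts over the 24 libraries. NKIRAS2 on one side had a median of 606.5 counts, and NAGLU and COASY on the other 166.5 and 962.5. Of all 20312 protein-coding rows, 36.6% had a median of at most 3 counts. The other 13 rows of the run had 1 to 10 counts a library in parental cells and 5 to 8 in PGCC when summed, so they did not show the difference that ATP6V0A1 showed between these conditions. Whether the run reflects the genome of this cell line or the way reads were assigned was not tested.

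**Figure D4:**
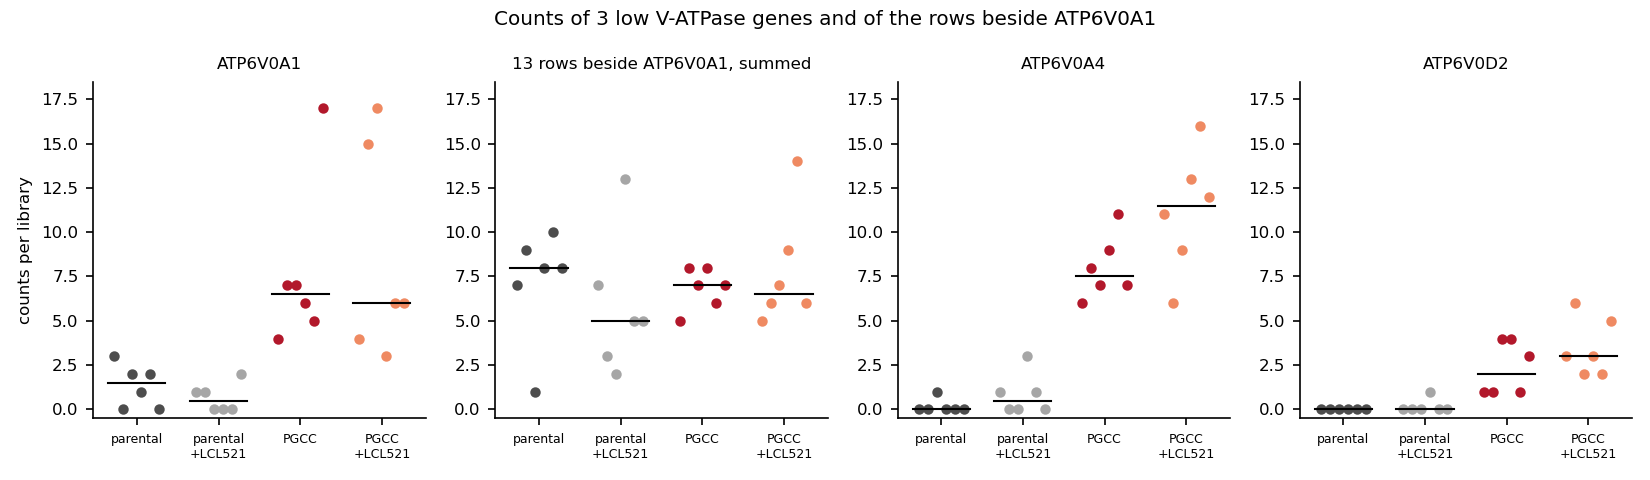
Counts per library (vertical axis, raw counts) of ATP6V0A1, of the 13 rows beside it in the run when summed, and of the isoform genes ATP6V0A4 and ATP6V0D2, in the order of the replicate numbers, with medians as lines. ATP6V0A1 has 0 to 3 counts in parental cells and 4 to 17 in PGCC, while the summed rows beside it have 1 to 10 and 5 to 8.

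The tissue-restricted isoforms were at the edge of detection. ATP6V0A4 had 0 or 1 count in parental cells (1 in all) and 6 to 11 in PGCC (48 in all). ATP6V0D2, the d2 subunit of osteoclasts, had 0 counts in all 6 parental libraries, where 3 counts are 0.15 to 0.208 CPM, and 1 to 4 counts in PGCC (14 in all). Neither gene passed the filter on low counts, and no test is given for them. In PGCC the highest library had 0.555 CPM of ATP6V0A4 and 0.249 CPM of ATP6V0D2. ATP6V1B1, the B1 subunit of the kidney, had 0 to 3 counts in any library. ATP6V1C2 had 7 to 24 counts in parental cells and 8 to 22 in PGCC, with a log2 fold change of -0.35 and an SE of 0.33 (edgeR, adjusted p = 0.40). ATP6V1B2, ATP6V1C1 and ATP6V0D1 held at least 96.7% of the RPKM of their isoform pairs in every library.

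Of the 16 other subunit genes, 9 were tested and 2 were called, both higher in PGCC, beside the 47.4% of all genes called in this comparison. Their median log2 fold change was 0.06. ATP6V1E1, of the peripheral stalk, ranged from 94.2 to 122 CPM in parental cells and from 119 to 139 CPM in PGCC, with a log2 fold change of 0.32 and an SE of 0.07 (edgeR, adjusted p = 0.0026). ATP6V1D, of the central rotor, ranged from 41.1 to 52.7 CPM and from 45.4 to 70.8 CPM, with a log2 fold change of 0.32 and an SE of 0.11 (edgeR, adjusted p = 0.025). ATP6V1D overlaps MPP5 and EIF2S1 on the opposite strand, and the strand setting of the counting is not given in the sources used here, so reads of the genes cannot be told apart. The remaining 7 had log2 fold changes between -0.35 and 0.23. ATP6V0C, the proteolipid of the ring, had 134 counts and RNASEK 66 counts over 24 libraries. The spans of both are covered in large part by other listed genes on the same strand, TBC1D24 and ATP6C for ATP6V0C and RNASEK-C17orf49 for RNASEK, so their counts are uncertain.

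Of 12 genes that assemble or regulate the pump, 11 were tested, 1 was higher and 4 were lower in PGCC. These 5 of 11 are a share close to the 47.4% of all genes called. With the replicate number as a block TMEM199, an assembly factor that works with CCDC115, was also called higher (log2 fold change 0.59; edgeR, adjusted p = 0.039). That fit called 56.2% of all genes. The 4 lower genes were CCDC115, an assembly factor of the endoplasmic reticulum and Golgi (log2 fold change -0.85, SE 0.11; edgeR, adjusted p = 2.76e-05), WDR7, a partner of the rabconnectin complex (-0.73, SE 0.14; 0.00068), VMA21, an assembly chaperone of V0 (-0.60, SE 0.07; 5.55e-06), and ROGDI, of the same rabconnectin group (-0.42, SE 0.12; 0.0097). CCDC115 was at 22.1 to 31.6 CPM in parental cells and 14.6 to 16.9 CPM in PGCC, without overlap. TLDC1, which holds the TLDc domain found in regulators that bind V1, was at 20.3 to 28.7 CPM and 43.7 to 51.7 CPM, with a log2 fold change of 0.98 and an SE of 0.10 (edgeR, adjusted p = 2.91e-06).

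Of 13 genes for ion transport across endosomal and lysosomal membranes, all 13 were tested, and 4 were higher and 0 lower in PGCC, beside 23.1% of all genes higher and 24.3% lower. The median log2 fold change was 0.18. With the replicate number as a block 5 were higher, CLCN4 being the one added (log2 fold change 0.86; edgeR, adjusted p = 0.00018). Over all 13812 genes, 3851 were higher with the block and 3186 without it. SLC9A9, an endosomal sodium-proton exchanger, was at 0.545 to 2.62 CPM in parental cells and 6.07 to 13.1 CPM in PGCC. It is counted among the 4 higher genes. It passed the filter on low counts through the PGCC libraries and not among parental cells alone, so its levels are given with no test. SLC9A7, the exchanger of the trans-Golgi network, had a log2 fold change of 0.79 with an SE of 0.10 (edgeR, adjusted p = 2.90e-05). The cation channels TPCN1 with 0.62 (edgeR, adjusted p = 0.00051) and TPCN2 with 0.48 (edgeR, adjusted p = 0.0016) followed. The lysosomal exchanger CLCN7 was not called (0.12; edgeR, adjusted p = 0.28).

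Among the transcription factors of the MiT/TFE family, TFEB was lower in PGCC (median 5.82 CPM against 1.81 CPM; log2 fold change -1.59, SE 0.22; edgeR, adjusted p = 5.16e-05). TFEC had 0 to 14 counts a library in parental cells and 35 to 71 in PGCC. It passed the filter on low counts through the PGCC libraries and not among parental cells, so its counts are given with no test. TFE3 (0.10) and MITF (-0.20) were not called. Of 27 genes of lysosomal hydrolases and membrane proteins, 24 were tested, 13 were higher and 3 lower, beside 23.1% of all genes higher and 24.3% lower. The median log2 fold change was 0.34. ASAH1, the target of LCL521, was lower in PGCC, at 59.8 to 72.0 CPM against 46.2 to 56.3 CPM (log2 fold change -0.40, SE 0.07; edgeR, adjusted p = 0.0006).

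The second comparison asked the same of cells that had all received LCL521. It shares no library with the first, but its libraries come from the same experiments, so it is not an independent repeat. TCIRG1 was higher in PGCC with LCL521, at 8.76 to 19.2 CPM with a median of 10.9 in the parental cells and 26.5 to 41.8 CPM with a median of 32.5 in PGCC. The groups did not overlap. The log2 fold change was 1.46 with an SE of 0.19 (edgeR, adjusted p = 2.79e-05), a 2.76-fold difference with a 95% confidence interval of 2.07 to 3.68. It was the 1 gene called of the 9, where 48.9% of all 13818 genes were called. The difference in mean log2 CPM was 1.19 over replicates 1, 2, 3 and 6 and 2.03 over replicates 4 and 5.

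ATP6AP2 was higher in 6 of 6 replicates under LCL521 but was not called (51.6 to 67.9 CPM against 58.2 to 74.6 CPM; log2 fold change 0.18, SE 0.08; edgeR, adjusted p = 0.091). With the replicate number as a block, which called 56.3% of all genes, it passed the threshold (edgeR, adjusted p = 0.049). ATP6V1H was lower in 6 of 6 replicates and stood just outside the threshold (29.3 to 39.1 CPM against 25.4 to 32.4 CPM; log2 fold change -0.23, SE 0.09; edgeR, adjusted p = 0.053). It was called in 5 of the 16 alternative fits, 2 of them among the 6 that left out 1 replicate. Another of the 5 fitted all 24 libraries together (edgeR, adjusted p = 0.011). Its difference in mean log2 CPM was -0.12 over replicates 1, 2, 3 and 6 and -0.53 over replicates 4 and 5, and leaving out the latter gave a log2 fold change of -0.09 (edgeR, adjusted p = 0.47). The other 6 genes had log2 fold changes between -0.12 and 0.04.

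Of the other subunits, 2 of 9 were called under LCL521, both higher, and among the 11 tested genes for assembly and regulation 1 was higher and 4 were lower. Both stand beside 48.9% of all genes called in this comparison. Of the 13 ion transport genes 4 were higher and 0 lower, namely SLC9A9 (again with no test given), SLC9A7 (log2 fold change 0.85), TPCN1 (0.68) and CLCN4 (1.02, SE 0.37; edgeR, adjusted p = 0.033). TPCN2, called without LCL521, did not pass here (0.26, SE 0.12; edgeR, adjusted p = 0.091), and CLCN4 had not passed there without the block (0.88; adjusted p = 0.053). With the block under LCL521, MCOLN1, a cation channel of lysosomes, was called as well (0.24; edgeR, adjusted p = 0.027). That fit called 56.3% of all genes.

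The third comparison asked what 5 h of LCL521 did to these genes in parental cells. No pump gene was called, and no gene at all (0%) of the 13277 tested, of which 71 had an unadjusted p under 0.05 (edgeR). With the replicate number as a block 0.866% of all genes were called and again 0 of the 9. The 9 log2 fold changes were all above 0, between 0.0019 and 0.14, with a median of 0.06 beside -0.00021 over all genes. ATP6V1B2 was higher with LCL521 in 6 of 6 replicates (85.8 to 94.6 CPM without, 87.9 to 103 CPM with), with a log2 fold change of 0.14 and an SE of 0.06 (edgeR, unadjusted p = 0.041, adjusted p = 1, and 0.13 with the block). ATP6V1C1 was also higher in 6 of 6 replicates (88.5 to 108 CPM without, 96.0 to 111 CPM with; log2 fold change 0.13, SE 0.07; edgeR, adjusted p = 1, and 0.15 with the block).

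TCIRG1 did not pass either test in parental cells. It ranged from 9.44 to 16.3 CPM without and from 8.76 to 19.2 CPM with LCL521, was higher in 4 of 6 replicates, and had a log2 fold change of 0.12 with a 95% confidence interval of -0.34 to 0.58. The interval, from the fit without the block, is wide in both directions. Within replicates, the differences of TCIRG1 in log2 CPM lay between -0.20 and 0.26. For ATP6AP1 the interval ran from -0.13 to 0.13 around a log2 fold change of 0.0019.

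The fourth comparison asked the same of PGCC. INSIG1, a sensor of sterols, was the 1 gene called among 14151, which is 0.00707% (log2 fold change 0.67, SE 0.09; edgeR, adjusted p = 0.04), and 218 genes had an unadjusted p under 0.05. A rise of INSIG1 was not particular to PGCC. In parental cells, where it was not called, it ranged from 26.9 to 46.9 CPM without and from 48.4 to 81.6 CPM with LCL521. With the block 1.65% of all genes were called in PGCC. None of the 9 pump genes was called in either fit. Their log2 fold changes had a median of 0.09 beside -0.003 over all genes, and 7 of 9 were above 0. ATP6V1C1 came nearest to the threshold, at 75.1 to 91.7 CPM without and 83.9 to 101 CPM with LCL521 (log2 fold change 0.15, SE 0.07; edgeR, adjusted p = 1, and 0.053 with the block). It was higher in 5 of 6 replicates. ATP6V1B2 (0.09, SE 0.07) and ATP6V0D1 (0.06, SE 0.06) were higher in 6 of 6 replicates, by 0.05 to 0.12 and by 0.02 to 0.10 in log2 CPM. TCIRG1 was higher in 4 of 6 replicates, with a log2 fold change of 0.17 and a 95% confidence interval of -0.08 to 0.43.

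**Figure D5:**
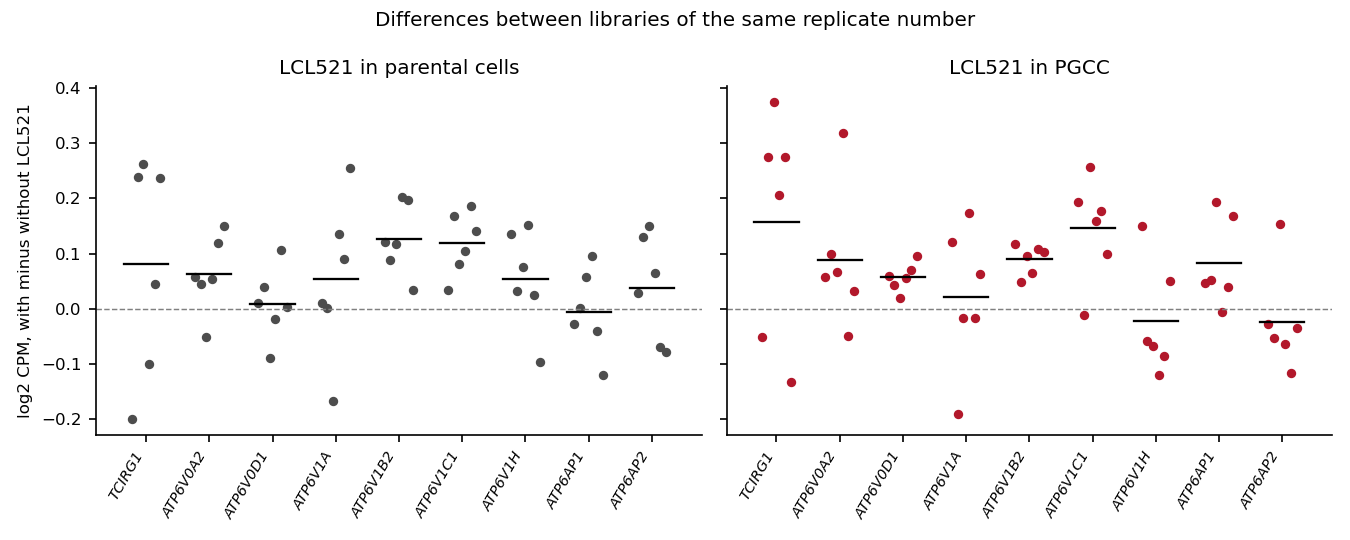
Difference in log2 CPM between the library with LCL521 and the library without it of the same replicate number (vertical axis), for the 9 tested V-ATPase genes in parental cells and in PGCC, with means as lines. ATP6V1B2 is above 0 in 6 of 6 replicates of both populations, and TCIRG1 in 4 of 6.

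Outside the pump itself, a few genes were called under LCL521 when the replicate number was a block. In parental cells these were CLCN6 (log2 fold change 0.35, SE 0.07; edgeR, adjusted p = 0.023) and CLCN7 (0.17, SE 0.04; 0.045) of the 13 ion transport genes. In PGCC the same pair was called, CLCN6 with 0.34 and an SE of 0.07 (edgeR, adjusted p = 0.0049) and CLCN7 with 0.17 and an SE of 0.04 (adjusted p = 0.042). CLCN6 and CLCN7 are chloride-proton exchangers of late endosomes and lysosomes. Among the lysosomal genes, NPC1, which exports cholesterol from lysosomes, was called in parental cells (0.44; adjusted p = 0.0069) and PGCC (0.30; 4.20e-05), and NEU1, a sialidase, with 0.22 (0.041) and 0.20 (0.012). Without the block none of the 4 was called. Not all of these calls were kept when replicates 4 and 5 were left out. That fit has fewer libraries and called fewer of all genes in both populations. Whether a call was lost through these replicates or through the smaller number of libraries was not tested. With the block and without those replicates, none of the 4 was called in parental cells (edgeR, adjusted p of 0.11 for CLCN6, 0.18 for CLCN7, 0.12 for NPC1 and 0.34 for NEU1). In PGCC, NPC1 (0.00048) and NEU1 (0.044) were then still called, but CLCN6 (0.21) and CLCN7 (0.44) were not. Of the other subunits and of the genes for assembly and regulation, 0 were called with or without the block in either population.

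A test of the difference between the LCL521 effects in PGCC and in parental cells, over all 24 libraries, called 0 of the 9 genes and 0 of all 14555 (0%), with 60 genes at an unadjusted p under 0.05 (edgeR). The 9 differences lay between -0.07 and 0.09 on the log2 scale. That of TCIRG1 was 0.06 with a 95% confidence interval of -0.44 to 0.55, and that of ATP6V1C1 0.03 with an interval of -0.17 to 0.23.

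The 9 tested genes did not vary as 1 group between libraries. After the mean of each condition was subtracted, Pearson's r over the 24 libraries was above 0 for 28 of their 36 pairs, with a median of 0.27. It was 0.78 between ATP6V0D1 and ATP6V1A, 0.77 between ATP6V0A2 and ATP6V0D1 and 0.66 between ATP6V1B2 and ATP6V1C1. With TCIRG1 it was -0.66 for ATP6V1B2, -0.62 for ATP6V1H and -0.41 for ATP6V1C1, but 0.15 for ATP6V1A, the fourth V1 gene. For TCIRG1 and ATP6AP2 it was -0.53. These values describe 24 libraries that share replicate numbers, and they include the shift of replicates 4 and 5.

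By the same measure, the genes most like each member among 14555 were as follows. With the difference between conditions kept in, TCIRG1 was most like POLD1 (0.99), ISYNA1 (0.98) and SIGIRR (0.97), and without it most like LRRC45 (0.92), PIDD (0.91) and ZDHHC8 (0.90). ATP6AP2 was most like LAPTM4A in both (0.93 and 0.89), a membrane protein of late endosomes and lysosomes. ATP6AP1 was most like SEC61A1 (0.80), the channel of the endoplasmic reticulum, CHPF2 (0.80) and P4HB (0.78). ATP6V0D1 was most like WDR1 (0.97), SRD5A1 (0.97) and DDAH1 (0.97) with the condition means removed, ATP6V0A2 like STAMBPL1 (0.92) and ATP6V1A like ZNF326 (0.89). No other pump gene was among the 3 most alike of any member.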

How the data were processed

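RNA-seq of 24 PPC1 libraries was analysed, 6 in each of 4 conditions. Per the labels and the methods of the study, the authors aligned reads to hg19 with STAR (2.5) and counted them per gene with HTSeq (0.6.1). The deposited table holds these raw counts for 48162 genes, unnormalised, with coordinates and gene lengths. Library totals were 14835246 to 19906601 counts, and intervals cover counting and replicate spread only. Replicates of a condition differed beyond sampling noise in all 60 pairs (chi-square per degree of freedom 4.69 or more).

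Groups came from the labels. The quasi-likelihood test of edgeR (4.0.16, with limma 3.58.1, in R 4.3.3) was run on the 12 libraries of each comparison with TMM factors, after genes were filtered by filterByExpr (minimum count 10, minimum total 15), with Benjamini-Hochberg adjustment over all genes tested and a threshold of 0.05. The difference of the LCL521 effects was fitted on all 24 libraries. log2 CPM used a prior count of 2. Alternatives were DESeq2 (1.42.0), RLE factors, library totals, other filters, all libraries in one fit, replicate blocks, a gene length correction and left-out replicates. The block without replicates 4 and 5 was added after seeing the data. The script was tested on simulated data.

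Per the design text of the submitters, the 4 conditions were harvested side by side in each of 6 independent experiments. Same-numbered libraries deviated together, with every correlation over 0.1 in each comparison (6 of 6 pairs, lowest 0.171), so the numbers were taken to pair the samples. These correlations include the shift of replicates 4 and 5. The highest correlation was with the same number for 6 of 6 libraries in both comparisons with against without LCL521. It was so for 5 of 6 in PGCC against parental cells and for 3 of 6 when both had LCL521. The named genes were all 10 members, their paralogs, and the largest changes past the threshold in the other lists. ROGDI, TMEM199, TPCN2, CLCN4, MCOLN1, ATP6V0C and RNASEK, and the genes beside ATP6V0A1, were named after their values were seen. Members and lists were chosen with earlier results of these data known. Promoter sequences are from RefSeq (GRCh38.p14). Part of the list of prostate luminal markers is not reported here.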

Additional observations from a re-analysis of the deposited data

Results flagged for a closer look

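In 3 of 44 groups of 6 libraries, 1 library stood far from the others by Dixon's test, where chance gives about 1 in 20 groups. TCIRG1 was at 16.3 CPM in parental replicate 6, and the nearest parental library was at 11.4 CPM. ATP6V1H was at 38.4 CPM in parental replicate 5, and the nearest was at 32.2 CPM. ATP6V0A1 was at 0.947 CPM in PGCC replicate 6, and the nearest was at 0.436 CPM.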

How the results depend on the processing

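TCIRG1 kept its call in both comparisons of PGCC with parental cells under all 16 alternatives, with log2 fold changes of 1.21 to 1.52 and 1.17 to 1.69. Between 1 and 2 V-ATPase genes were called without 1 replicate in either comparison. Under LCL521, where 1 was called, 2 were called with DESeq2, RLE factors, all libraries in one fit, at least 10 counts in every library, library totals, no filter, the replicate block, and the block without replicates 4 and 5. The gene added to TCIRG1 was not the same throughout. Among the 16 alternatives ATP6V1H passed in 5 and ATP6AP2 in 4, and with no filter the added gene was ATP6V0A1. The replicate block changed no other call of a V-ATPase gene than that of ATP6AP2 under LCL521. The LCL521 effect in PGCC, with 1 gene called of all, gave 6 with DESeq2, 0 with all libraries in one fit or without replicates 4 and 5, 234 with the replicate block, 260 with the block and length correction, 129 with the block without replicates 4 and 5, and 0 to 1 without 1 replicate. INSIG1 was thus lost without replicate 1, 3, 4, 5 or 6. In parental cells the 0 became 115 with the replicate block, 234 with the block and length correction and 3 with the block without replicates 4 and 5. The cause was not tested.

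Directions turned only in values that were not called. For PGCC against parental cells, ATP6V1B2 became 0.0068 (DESeq2), 0.0074 (RLE), 0.033 (at least 10 counts), 0.0901 (library totals), 0.065 (without replicates 4 and 5, with or without the block) and -0.0413 to 0.028 without 1 replicate, and ATP6V0D1 0.0086 (at least 10 counts) and 0.066 (library totals). Under LCL521, ATP6V1B2 became 0.0104 (at least 10 counts), 0.031 (library totals), 0.081 (without replicates 4 and 5), 0.0801 (the same with the block) and -0.0910 to 0.024 without 1 replicate, ATP6V0D1 -0.0057 (no filter), and ATP6AP1 -0.013 (DESeq2 and RLE), -0.025 (all libraries), -0.045 (no filter), -0.024 (block with length correction) and -0.037 to 0.026 without 1 replicate. For LCL521 in parental cells, ATP6AP1 became -0.0052 (all libraries), -0.011 (without replicates 4 and 5, with or without the block, and block with length correction) and -0.018 to 0.019 without 1 replicate, and ATP6V0D1 was -0.00079 to 0.034. In PGCC, without replicates 4 and 5 and with the block added, ATP6V1A became -0.0072 and -0.0074, ATP6V1H 0.018 and 0.018, and ATP6AP2 0.0036 and 0.0057. Without 1 replicate, ATP6V1A was -0.0036 to 0.067 and ATP6V1H -0.05 to 0.0039. The difference of the LCL521 effects without 1 replicate was -0.012 to 0.061 for ATP6V0A2, -0.066 to 0.0059 for ATP6V1A and -0.000896 to 0.057 for ATP6V1C1, and for TCIRG1 -0.052 without replicates 4 and 5 and -0.035 with the block. Genes at a few counts, such as ATP6V0A1, are limited by depth.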
